A study of Homo sapiens with 4 samples.

Results

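The SLC25 genes encode the mitochondrial carrier family, and their transcript levels were measured in the human embryonic stem cell line HUES8 and compared by the genotype label, WT or CPT2 KO. Members were taken by name from the deposited table, as every row that reads SLC25A followed by digits and nothing more, with SLC25A20 left out. The rule found 47 genes of the 59050 listed, and they were grouped by the substrate each carrier is known to move. Antisense and pseudogene rows do not match the rule, nor do the family members named UCP1, UCP2, UCP3, MTCH1 and MTCH2.

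HUES8 is an established human embryonic stem cell line, grown here on Matrigel in mTeSR1, a feeder-free maintenance medium. There were 2 libraries with the genotype WT and 2 with the genotype CPT2 KO, all 4 with the treatment entry WT. CPT2 is the inner-membrane enzyme that hands long-chain acyl groups to coenzyme A for oxidation. The labels do not give the edited site, the number of knockout clones or whether replicates were separate cultures. The p-values therefore cover only the spread among these 4 libraries, which may be technical.

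SLC25 carriers sit in the mitochondrial inner membrane, apart from a few in the outer membrane or in peroxisomes. Each is built from repeats of paired transmembrane helices around a central site and usually exchanges a solute of the matrix for a solute of the cytosol. They move ADP and ATP, phosphate, citrate and other acids of the tricarboxylic acid cycle, amino acids, nucleotides, cofactors and iron. In stem cells they link a glycolytic cytosol to mitochondria that export citrate for acetyl-CoA and lipid synthesis.

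The CPT2 transcript was higher under the label CPT2 KO (log2 fold change 1.78, edgeR adjusted p = 0.0218). It had 52 and 72 counts under the label WT and 233 and 170 under the label CPT2 KO. Without the edited site, these counts do not show whether CPT2 function was lost. Every difference is therefore given between libraries as labelled. Library totals ran from 16887789 to 20460031 counts. Values given "under WT" and "under CPT2 KO" are those of replicates 1 and 2 with that label, and pairs joined by "against" keep that order. Replicate 1 labelled WT was set apart: chi-square over its degrees of freedom, taken over gene counts, was 39.6 to 53.3 against each other library, and 10.5 to 12.6 for the pairs without it. The 18 hypoxia response genes summed to 2977 CPM, a count relative to the TMM-adjusted library total, in that library and to 714 to 1112 CPM in the others, and its mitochondrially encoded genes took 4.15% of counts against 7.21% to 7.84%. Pluripotent stem cell markers were present in every library, with POU5F1 at 1884 to 2300 CPM and the 12 markers together at 10550 to 12270 CPM. All 12 were tested, ZFP42 was called higher and 0 were called lower, where edgeR called 0.359% of all tested genes higher and 0.0569% lower. Definitive endoderm markers summed to 13.3 and 8.79 CPM under WT and to 199.6 and 33.1 CPM under CPT2 KO, of which CER1 gave 124.2 and 11.1 CPM. Neuroectoderm markers summed to 325 to 449 CPM, mostly from NES. Of the 7 tested, SOX1 and SIX6 were called lower (log2 fold changes -3.30 and -4.72, edgeR adjusted p = 0.0164 and 0.0382) and 0 higher. The other lists had 0 calls. Mesoderm markers summed to 356 to 591 CPM, mostly from KDR, and fibroblast markers to 440 to 508 CPM, mostly from THY1 and COL1A2. KDR stood at 380.7 and 350.7 CPM under WT and at 574.8 and 426.6 CPM under CPT2 KO. TBXT stood at 0.488 and 0.194 against 6.73 and 0.904 CPM. The endoderm, neuroectoderm and mesoderm sums were each highest in replicate 1 labelled CPT2 KO, and the fibroblast sum in replicate 2 labelled WT. COL3A1, DCN and LUM had at most 7 counts in any library. Trophoblast and amnion markers summed to 12.4 to 15.6 CPM and blood and endothelial markers to 0.583 to 1.08 CPM. HBG1, HBE1, CGA and HAND1 had 0 counts in all libraries. The part of these cell types in the carrier values was not tested.

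The family was broadly transcribed. Levels of different genes are set side by side in CPM per kilobase of gene length. Of the 47 members, 12 had a mean level of at least 10 on that scale, 25 lay between 1 and 10, and 10 lay under 1. SLC25A31 had 0 counts in all 4 libraries, and the other 46 had a count in at least 1. The low-count filter kept 41 members, and the 6 left out, SLC25A2, SLC25A31, SLC25A34, SLC25A45, SLC25A47 and SLC25A52, had at most 9 counts in any library.

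**Figure D1:**
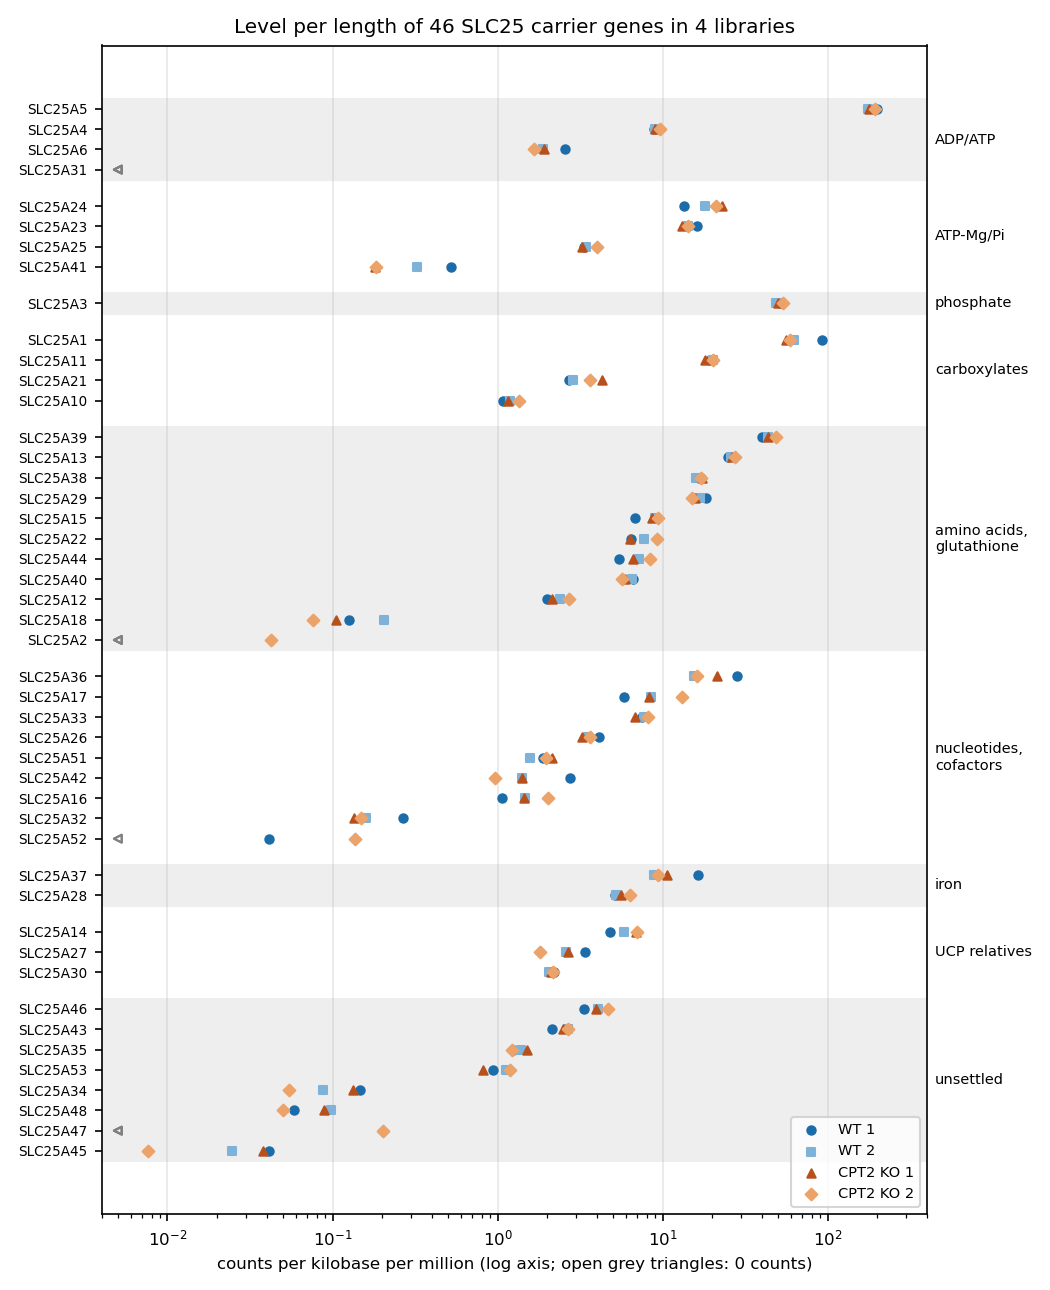
Level of 46 SLC25 genes in CPM per kilobase (horizontal log axis), 1 symbol per library, genes grouped by substrate class and ordered by mean level within it. SLC25A5 lies at the top of the scale in all 4 libraries, and SLC25A1, SLC25A36, SLC25A37 and SLC25A42 show the symbol of replicate 1 labelled WT set off to the right.

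SLC25A5, the ADP/ATP carrier of proliferating cells, stood highest at 187.6 CPM per kilobase on average, from 177 to 200.4 over the libraries. SLC25A1, the citrate carrier, came next with 55.9 to 92.6, then SLC25A3, the phosphate carrier, with 49.0 to 54.0, and SLC25A39, a glutathione carrier, with 40.4 to 48.7. These 4 ranges do not overlap. Below them SLC25A13, the aspartate/glutamate carrier citrin, had 25.1 to 27.4, SLC25A36, a pyrimidine nucleotide carrier, 15.5 to 28.1, SLC25A11, the oxoglutarate/malate carrier, 18.0 to 20.4, and SLC25A24, an ATP-Mg/phosphate carrier, 13.5 to 23.1. The range of SLC25A36 overlaps that of SLC25A13, and those of SLC25A36, SLC25A11 and SLC25A24 overlap each other, so the order of these genes is not set beyond the spread of the libraries. The deposited length counts all exons of a gene, 8896 bases for SLC25A3, so a level per length is understated where the cells use shorter transcripts.

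In the comparison of the labelled groups, 0 of the 41 tested carriers were called by edgeR at an adjusted p of 0.05, where 0.416% of all 17564 tested genes were called. The share of higher calls among all genes was 0.359% and of lower calls 0.0569%. DESeq2 and limma-voom also called 0 members, against 1.11% and 0.171% of all genes. So did edgeR with DESeq2 size factors (0.41% of all genes), upper quartile scaling (0.416%), library size only (0.416%), no filter on low counts (0.396%), at least 1 CPM in all 4 libraries (0.273%), mitochondrially encoded genes left out (0.422%) and the replicate number as a block (2.12%). At an unadjusted p under 0.05, edgeR had 4 members, or 9.76% of those tested, against 9.04% of all tested genes. DESeq2 had 4 and limma-voom 2. The share of all tested genes at an unadjusted p under 0.05 was taken for the main edgeR fit only. The 4 in edgeR were SLC25A24 and SLC25A21, with positive differences, and SLC25A1 and SLC25A42, with negative ones. Of the log2 fold changes, 22 were above 0 and 19 below, with a median of 0.046 against 0.0017 for all tested genes. The members' median was -0.025 without replicate 2 labelled CPT2 KO. Differences were under 0.25 in size for 28 members, or 68.3%, against 57.4% of all tested genes, and over 0.5 in size for 6, against 18.9% of all tested genes. The groups did not overlap for 13 of the 41, or 31.7%, against 40.9% of all tested genes. Of these 13, 6 were higher (background 21.1%) and 7 lower (background 19.8%) in the libraries labelled CPT2 KO.

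A missed threshold does not show equal levels, and the 95% intervals give what the 4 libraries allow. For 33 of the 41 members the interval lay within 1 log2 unit of 0 on either side, and for 8 it reached past 1. In data simulated from these libraries for this comparison, with a median of 17128 genes tested, edgeR recovered 12.8% of genes changed by 1.5-fold, 55.5% of those changed by 2-fold and 80.9% of those changed by 4-fold. Apart from these changes, each gene had 1 mean in all simulated libraries and a spread set by its level. No simulated library was set apart as replicate 1 labelled WT was, so the rates do not cover that case.

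**Figure D2:**
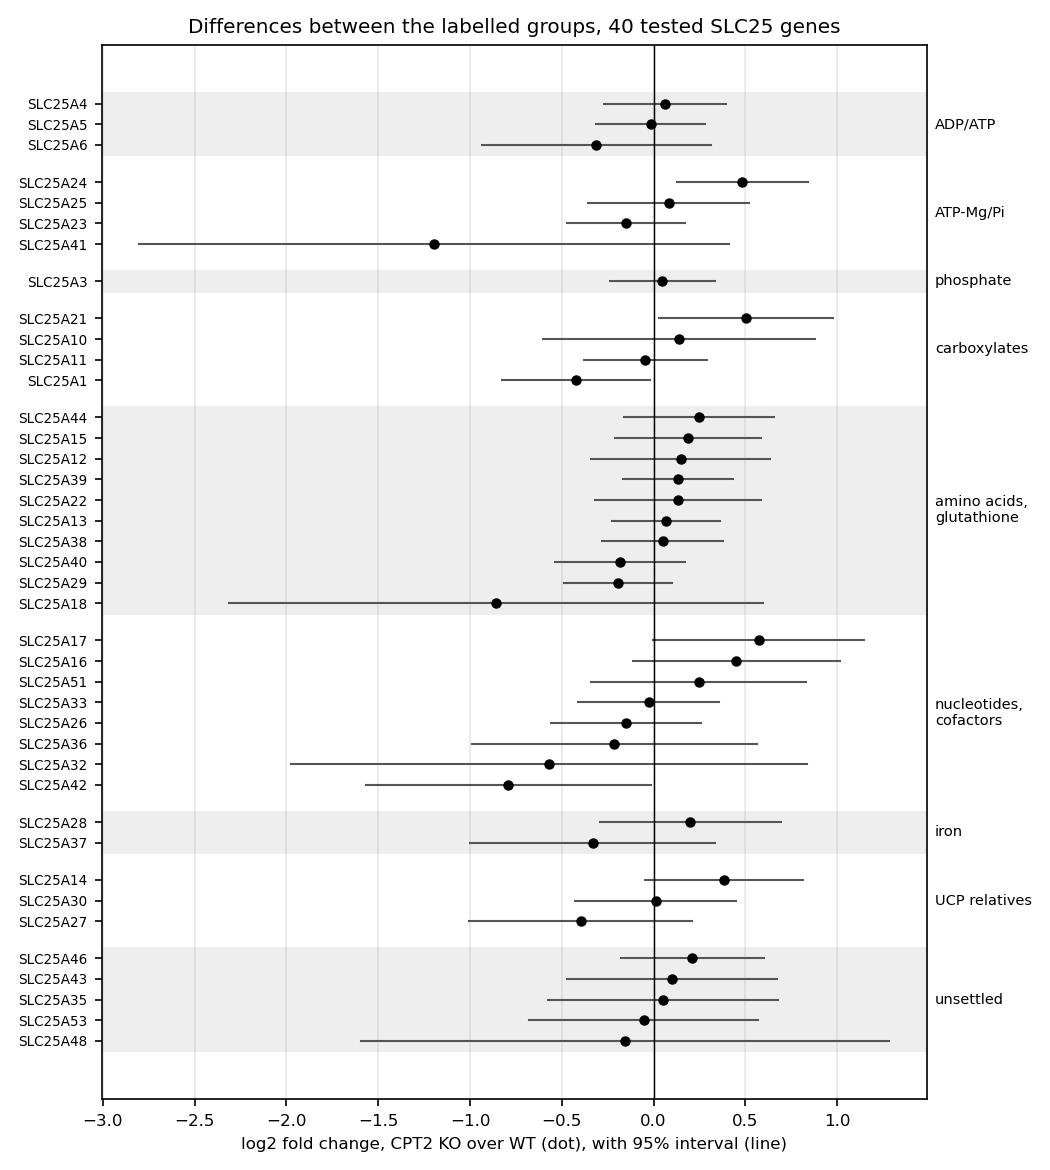
Log2 fold change, CPT2 KO label over WT label (dots), with the 95% interval (lines) for 40 of the tested SLC25 genes, by substrate class. The dots lie between -1.19 and 0.57, and the widest lines belong to SLC25A41, SLC25A18, SLC25A32 and SLC25A48, which have few counts.

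Among the ADP/ATP carriers, which pass ATP out of the matrix against ADP, 3 of 4 genes were tested and 0 were called. SLC25A5 lies on chromosome X at 119468400 to 119471319 (GRCh38, plus strand). It stood at 311.6 and 275.2 CPM under WT and at 276.7 and 303.5 CPM under CPT2 KO. The groups overlap, and the log2 fold change was -0.016 with an interval of -0.32 to 0.28 (edgeR adjusted p = 0.981). SLC25A4, the form of heart and skeletal muscle, stood at 43.0 and 43.5 against 43.5 and 46.8 CPM. SLC25A6 stood at 8.02 and 5.87 against 5.94 and 5.18 CPM. By counts per kilobase SLC25A5 made 94.2% to 94.6% of the transcripts of this class in each library, SLC25A4 4.21% to 4.80% and SLC25A6 0.808% to 1.22%. SLC25A6 lies in the part shared by chromosomes X and Y, where GENCODE 29 lists it on each at the same coordinates, 1386152 to 1392724. How reads with several alignments were counted is not given in the sources used here, so the level of SLC25A6 is uncertain. The shares of SLC25A5, SLC25A4 and SLC25A6 in this class are uncertain with it.

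The germ-cell ADP/ATP carrier SLC25A31 was not detected, and 0 counts in a library allow up to 3. The stretch before its start is shown because it holds the letters CACGTG 4 times, more than any other member. Of 27305 RefSeq promoters, the first listed for each gene, 5 hold that many, or 0.0183%. CACGTG is the E-box read by MYC and MAX, and the match describes the letters and not binding. The stretch is chr4:127730150-127730377 on the plus strand of GRCh38.p14, from RefSeq, written 5′ to 3′ with each match in capitals.
SLC25A31: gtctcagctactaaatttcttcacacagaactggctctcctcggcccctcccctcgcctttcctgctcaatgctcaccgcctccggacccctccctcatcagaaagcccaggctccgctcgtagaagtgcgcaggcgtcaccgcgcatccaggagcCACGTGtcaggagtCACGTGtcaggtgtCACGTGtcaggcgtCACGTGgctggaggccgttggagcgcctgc

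The ATP-Mg/phosphate carriers, which let the matrix gain or lose adenine nucleotides and are steered by calcium except for SLC25A41, held the member with the lowest p. SLC25A24, at 108134036 to 108200849 on chromosome 1 (minus strand), stood at 91.1 and 121.0 CPM under WT and at 155.3 and 141.5 CPM under CPT2 KO. The groups do not overlap, and replicate 1 labelled WT was the lowest. The difference was 1.40-fold (log2 fold change 0.48, SE 0.16, interval 0.13 to 0.84, edgeR adjusted p = 0.385). Leaving out replicate 1 or replicate 2 with the label WT gave 0.29 or 0.70. SLC25A23 had a log2 fold change of -0.15 and SLC25A25 of 0.083. SLC25A41, a short form without the calcium-binding part, had 16 and 11 counts against 6 and 5, a log2 fold change of -1.19 with an interval of -2.80 to 0.41. SLC25A24 made 40.9% and 50.3% of the transcripts of SLC25A23, SLC25A24 and SLC25A25 under WT and 58.5% and 53.4% under CPT2 KO, while SLC25A23 went from 48.9% and 40.1% to 33.4% and 36.4%.

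The phosphate carrier SLC25A3, which brings in phosphate for ATP synthesis, had the most reads of the family, 18.8% to 20.3% of the CPM of all members. It stood at 460.0 and 435.8 CPM against 444.5 and 480.5 CPM. The groups overlap, and the log2 fold change was 0.046 with an interval of -0.24 to 0.33 (edgeR adjusted p = 0.939). SLC25A3 lies on chromosome 12 at 98593591 to 98606379 on the plus strand.

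The 4 carriers of di- and tricarboxylates and oxoacids were all tested and 0 were called. SLC25A1 sends citrate to the cytosol, where it is split to acetyl-CoA, and lies on chromosome 22 at 19175575 to 19178830 (minus strand). It stood at 185.0 and 124.3 CPM under WT and at 111.8 and 118.8 CPM under CPT2 KO. Replicate 1 labelled WT was high, and the other 3 libraries lay between 112 and 124 CPM. The log2 fold change was -0.42 (SE 0.18, interval -0.83 to -0.022, edgeR adjusted p = 0.528), and -0.11 without that library. SLC25A21, which exchanges oxoadipate from lysine breakdown for oxoglutarate, stood at 10.1 and 10.7 against 15.9 and 13.4 CPM. The groups do not overlap, the replicates labelled WT lay close together, and the difference was 1.42-fold (log2 fold change 0.50, SE 0.21, edgeR adjusted p = 0.525). It ranged from 0.37 to 0.62 over the alternatives. SLC25A21 shares exon positions with PAX9 and SLC25A21-AS1 on the opposite strand, which had 33 to 80 and 12 to 44 counts, and strand was not stated, so its reads are uncertain. SLC25A11, a part of the malate-aspartate shuttle, stood at 48.0 and 49.8 against 44.5 and 50.3 CPM. Its exons overlap RNF167 on the opposite strand, which had 1903 to 2114 counts. SLC25A10, the dicarboxylate carrier, had 52 to 64 counts and shares 46.6% of its exon positions with AC139530.2.

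Of the 11 carriers of amino acids and glutathione, 10 were tested and 0 were called, with a median log2 fold change of 0.10, 7 positive and 3 negative. SLC25A39, which imports glutathione, stood at 142.3 and 153.4 against 152.8 and 171.7 CPM, with overlapping groups (log2 fold change 0.13, edgeR adjusted p = 0.784). SLC25A13 stood at 93.1 and 97.1 against 97.7 and 101.6 CPM. Its groups do not overlap, but the difference was 0.068 on the log2 scale with an interval of -0.23 to 0.36. SLC25A29, a carrier of basic amino acids, stood at 137.4 and 126.3 against 117.6 and 112.7 CPM (log2 fold change -0.20, SE 0.13, edgeR adjusted p = 0.679). SLC25A44, a carrier of branched-chain amino acids, stood at 39.6 and 52.2 against 48.3 and 61.0 CPM, where replicate 1 was the lower library of each group. Its log2 fold change was 0.25. It became 0.063 or 0.46 when replicate 1 or 2 with the label WT was left out, and 0.41 or 0.077 when replicate 1 or 2 with the label CPT2 KO was. SLC25A18 had 11 and 20 counts against 10 and 6 (log2 fold change -0.86, interval -2.31 to 0.60). The ornithine carrier SLC25A15, the glycine carrier SLC25A38, SLC25A12, SLC25A22 and SLC25A40 had log2 fold changes from -0.18 to 0.19.

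Paralogs that carry the same substrate were unequal to different degrees. SLC25A13 made 91.0% to 92.7% of the pair with SLC25A12, SLC25A22 made 97.4% to 99.2% of the glutamate carriers with SLC25A18, and SLC25A39 made 85.9% to 89.5% of the pair with SLC25A40. SLC25A37, mitoferrin 1, made 75.9% in replicate 1 labelled WT and 59.7% to 65.3% in the other libraries, the rest being SLC25A28, mitoferrin 2. SLC25A36 made 79.0% of the pyrimidine nucleotide pair with SLC25A33 in that library and 66.6% to 75.9% in the others. Shares in 7 groups of paralogs were compared between the labelled groups, 16 shares in all. The exact two-sided permutation p was between 0.333 and 1 for each, and 0.333 is the smallest that 2 libraries against 2 allow. Adjusted over the 16 shares (Benjamini-Hochberg), the lowest of these exact p-values was 0.762.

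**Figure D3:**
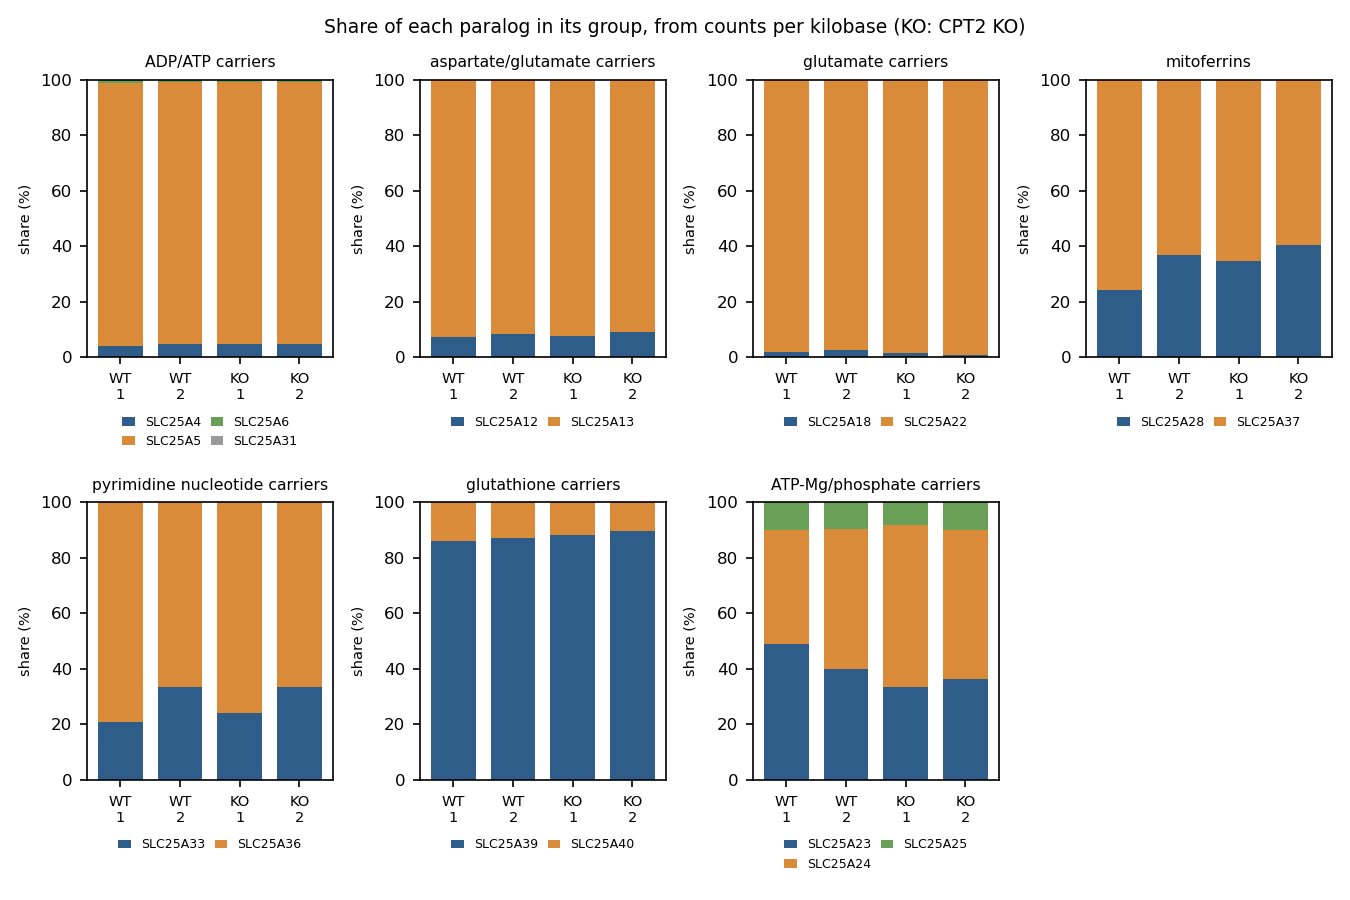
Share of each paralog within its group (percent, from counts per kilobase), 1 stacked bar per library, for 7 groups of carriers of related substrates. By these counts the ADP/ATP, aspartate/glutamate and glutamate groups are mostly 1 gene in all 4 libraries. The ADP/ATP shares depend on the uncertain level of SLC25A6. The mitoferrin bar of replicate 1 labelled WT holds 75.9% SLC25A37.

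Among 10 nucleotide and cofactor carriers, 9 were tested and 0 were called. SLC25A17, the carrier of coenzyme A, FAD and NAD in the peroxisomal membrane, stood at 23.3 and 33.7 CPM under WT and at 32.9 and 52.1 CPM under CPT2 KO. The groups overlap, replicate 1 was the lower library of each group, and replicate 2 labelled CPT2 KO was the high library. The log2 fold change was 0.57 (SE 0.25, edgeR adjusted p = 0.552), and 0.21 without that library. With the replicate number as a block it was 0.57 with an SE of 0.14 (edgeR adjusted p = 0.0591). SLC25A16, linked to coenzyme A in mitochondria, stood at 8.35 and 11.5 against 11.4 and 15.9 CPM (log2 fold change 0.45, edgeR adjusted p = 0.624). Leaving out replicate 1 or 2 with the label WT gave 0.24 or 0.70, and leaving out replicate 2 with the label CPT2 KO gave 0.21. SLC25A42, which imports coenzyme A, stood at 12.4 and 6.36 against 6.34 and 4.34 CPM. The values of replicate 2 labelled WT and replicate 1 labelled CPT2 KO differ by less than the worth of 1 count, so the groups are barely apart, and the log2 fold change was -0.79 (SE 0.35, edgeR adjusted p = 0.542). The carrier of S-adenosylmethionine SLC25A26 and the NAD carrier SLC25A51 had log2 fold changes of -0.15 and 0.24. SLC25A32, which brings folate or FAD into the matrix, had 18 and 12 counts against 10 and 9. It shares 69.7% of its exon positions with AC012213.5 on the same strand. It also shares 11.1% with DCAF13 on the opposite strand, which had 1644 to 2440 counts, so the level of SLC25A32 is uncertain.

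The 2 iron carriers supply iron for heme and iron-sulfur clusters, and 0 were called. SLC25A28 stood at 9.49 and 9.51 against 10.3 and 11.6 CPM (log2 fold change 0.20), and SLC25A37 at 130.4 and 70.9 against 84.8 and 74.9 CPM (log2 fold change -0.33, SE 0.28, edgeR adjusted p = 0.742). SLC25A37 was high in replicate 1 labelled WT, and the other 3 libraries lay between 70.9 and 84.8 CPM. Among the relatives of the uncoupling proteins, SLC25A14 stood at 14.4 and 17.7 against 20.6 and 21.2 CPM (log2 fold change 0.38, SE 0.19, edgeR adjusted p = 0.595), without overlap of the groups, and differed by 0.24 without replicate 1 labelled WT. SLC25A27 stood at 11.1 and 8.54 against 8.81 and 5.97 CPM (log2 fold change -0.40). Leaving out replicate 1 or replicate 2 labelled CPT2 KO gave -0.72 or -0.15 for SLC25A27, and leaving out replicate 1 or 2 labelled WT gave -0.19 or -0.57. SLC25A30 stood at 13.9 to 14.9 CPM in all 4 libraries. Of 8 carriers with unsettled substrates, 5 were tested with log2 fold changes from -0.16 to 0.21, among them SLC25A46, an outer-membrane protein, at 27.8 and 33.7 against 32.9 and 38.4 CPM.

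Over the tested members the replicates labelled WT differed by a median of 0.27 on the log2 scale and those labelled CPT2 KO by 0.17, beside a median size of 0.18 for the difference between groups. For 24 of the 41 the replicates labelled WT differed by more than the groups did, or 58.5%, against 54.6% of all tested genes. Replicate 1 labelled WT was the highest library for 14 of the 41, or 34.1%, against 31.8% of all tested genes. It was the lowest for 16, or 39%, against 32.5%. Replicate 1 over replicate 2 labelled WT was 1.95-fold for SLC25A42, 1.84-fold for SLC25A37, 1.81-fold for SLC25A36 and 1.49-fold for SLC25A1. Replicate 2 over replicate 1 with that label was 1.45-fold for SLC25A17 and 1.33-fold for SLC25A24. SLC25A36, on chromosome 3 at 140941830 to 140980961, stood at 289.6 and 159.6 CPM under WT and at 219.5 and 167.6 CPM under CPT2 KO, with overlapping groups (log2 fold change -0.21, edgeR adjusted p = 0.863). For SLC25A36 and SLC25A37 the libraries fall in the order replicate 1 labelled WT, replicate 1 labelled CPT2 KO, replicate 2 labelled CPT2 KO and replicate 2 labelled WT. The hypoxia list summed to 2977, 1112, 714 and 780 CPM in these libraries in that order. BNIP3, a hypoxia-induced mitophagy receptor, stood at 592.5, 198.7, 106.8 and 115.6 CPM. The list and BNIP3 were thus lowest in replicate 2 labelled CPT2 KO, unlike SLC25A36 and SLC25A37. SLC25A1 and SLC25A42, also highest in replicate 1 labelled WT, did not follow that order. SLC25A1 was lowest in replicate 1 labelled CPT2 KO (111.8 CPM) and SLC25A42 in replicate 2 labelled CPT2 KO (4.34 CPM). The part of the hypoxia genes in the carrier values was not tested.

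Which replicate labelled WT was kept decided the calls. With replicate 2 left out, so that replicate 1 alone stood for the group, edgeR called 6 of the 41, or 14.6%, against 6.86% of all tested genes. SLC25A1 (log2 fold change -0.68, edgeR adjusted p = 0.00337), SLC25A37 (-0.71, 0.00325), SLC25A36 (-0.58, 0.0202) and SLC25A42 (-1.20, 0.00929) were lower, where the background share of lower calls was 3.84%. SLC25A24 (0.70, edgeR adjusted p = 0.00483) and SLC25A17 (0.86, 0.0175) were higher, with a background of 3.02%. The spread of the lone library is then taken from the other group. With replicate 1 left out, edgeR called 0 members (0.848% of all genes), 0 had an unadjusted p under 0.05, and the log2 fold changes of the same 6 were -0.11, 0.17, 0.28, -0.24, 0.29 and 0.33. SLC25A36 and SLC25A37 thus had opposite signs with either replicate. Leaving out replicate 1 or replicate 2 labelled CPT2 KO gave 0 calls each (0.188% and 0.473% of all genes), with 2 members and 1 member at an unadjusted p under 0.05.

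**Figure D4:**
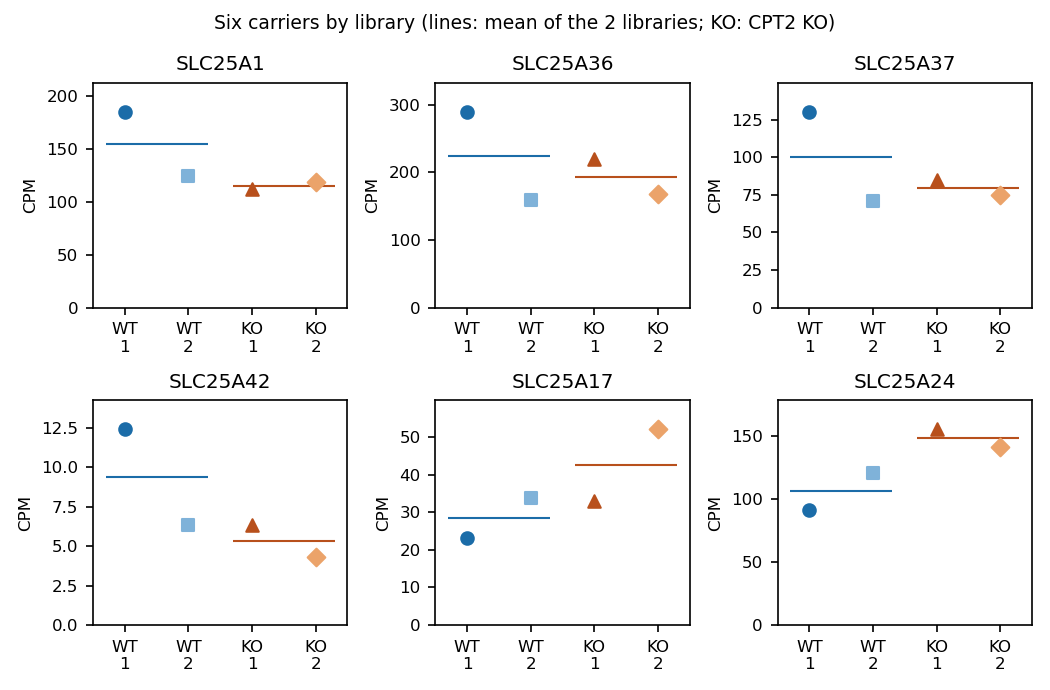
CPM of the 6 carriers called with replicate 2 labelled WT left out, 1 symbol per library on an axis from 0, with a line at the mean of each labelled group (n = 2). SLC25A1, SLC25A36, SLC25A37 and SLC25A42 are highest and SLC25A17 and SLC25A24 lowest in replicate 1 labelled WT.

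RefSeq promoters, 250 bases before the start, were matched for 39 of the 47 members, and where a gene has several starts the first listed was counted. The stretches of 3 of the 4 carriers called lower with replicate 2 labelled WT left out are shown because these carriers and the hypoxia list were highest in the same library. The fourth, SLC25A37, is among the 8 members for which no RefSeq promoter was matched. The stretches shown end before the outermost start in GENCODE 29. Capitals mark ACGTG or GCGTG on either strand, the core letters read by hypoxia-inducible factors, and ACGTG also lies within CACGTG. They are chr22:19178831-19178986 on the minus strand, chr3:140941586-140941829 on the plus strand and chr19:19063744-19063993 on the plus strand, GRCh38.p14, 5′ to 3′.
SLC25A1: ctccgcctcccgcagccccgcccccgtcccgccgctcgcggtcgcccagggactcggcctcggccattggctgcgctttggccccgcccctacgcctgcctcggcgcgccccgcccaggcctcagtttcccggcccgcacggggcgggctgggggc
SLC25A36: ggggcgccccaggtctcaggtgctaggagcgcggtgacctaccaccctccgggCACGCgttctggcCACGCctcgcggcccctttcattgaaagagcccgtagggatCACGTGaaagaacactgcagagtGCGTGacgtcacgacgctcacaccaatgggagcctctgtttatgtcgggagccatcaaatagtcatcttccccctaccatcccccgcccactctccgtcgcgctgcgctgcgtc
SLC25A42: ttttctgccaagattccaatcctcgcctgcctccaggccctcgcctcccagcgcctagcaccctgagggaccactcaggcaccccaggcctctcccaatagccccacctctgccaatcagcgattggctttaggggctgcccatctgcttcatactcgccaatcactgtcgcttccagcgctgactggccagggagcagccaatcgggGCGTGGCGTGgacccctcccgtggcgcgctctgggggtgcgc
SLC25A36 holds 3 matches to GCGTG and 1 CACGTG, SLC25A42 holds 2 matches to GCGTG, and the stretch of SLC25A1 holds neither. The full 250 bases of SLC25A1 hold 1 match to GCGTG, in the part not printed. SLC25A24 and SLC25A17, which were lowest in that library, are not shown. In the full 250 bases SLC25A24 holds 1 match to ACGTG and 1 to GCGTG at 1 of its starts and neither at the other. SLC25A17 holds neither. The relation of the letters to the levels was not tested. These letters are common. Over the full 250 bases GCGTG was found before 29 of the 39 members, or 74.4%, 44.6% of 11610 tested genes and 31.9% of all 27305 promoters, and ACGTG before 28.2%, 22.7% and 18.7%. The median GC content was 65.2% for the members and 64.8% for tested genes. CACGTG was found before 17.9% of the members and 8.6% of tested genes, and the ETS core CCGGAAG before 17.9% and 14.8%. These member shares include members that were not tested. Over the 34 tested members with a promoter they were 73.5% for GCGTG, 26.5% for ACGTG and 17.6% for each of CACGTG and CCGGAAG. The palindrome of NRF1, a regulator of respiratory genes, was found before 0 of the 39 members and 1.8% of tested genes. SLC25A42 also holds CCAAT or its reverse complement ATTGG 6 times, and 0.114% of all promoters hold it at least that often.

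Other genes of carrier biology gave 0 calls, where edgeR called 0.416% of all tested genes. In lists this short, 0 calls is near that share. Carrier-fold relatives outside the rule had 4 tested of 6, with log2 fold changes of 0.18 for UCP2, 0.049 for MTCH1, -0.079 for MTCH2 and 0.024 for SLC25A20, while UCP1 and UCP3 had at most 11 counts. Of 23 other mitochondrial transporters, all tested, 18 differences were positive and 5 negative, with a median of 0.095. Over all tested genes 8834 were positive and 8730 negative, with a median of 0.0017. Replicate 1 labelled WT was the lowest library for 15 of the 23, or 65.2%, against 32.5% of all tested genes. MCUB, an inhibitory subunit of the calcium uniporter, stood at 12.2 and 11.8 against 21.9 and 20.1 CPM (log2 fold change 0.81, SE 0.19, edgeR adjusted p = 0.160). ABCB10, a transporter needed for heme synthesis, and MPC1, a subunit of the pyruvate carrier, differed by 0.52 and 0.74 on the log2 scale, with edgeR adjusted p-values of 0.429 and 0.430. Of 16 listed genes that import carriers through the outer membrane and the TIM22 complex, 15 were tested, 12 with positive and 3 with negative differences and a median of 0.16. Replicate 1 labelled WT was the lowest library for 9 of these 15, or 60%, and the part of that library in both lists was not tested. TOMM7, a small subunit of the outer-membrane import pore, stood at 46.8 and 59.9 against 92.1 and 94.3 CPM (log2 fold change 0.80, SE 0.16, edgeR adjusted p = 0.0770), without overlap of the groups. TOMM5 had 8 and 18 counts against 50 and 34 (log2 fold change 1.77, edgeR adjusted p = 0.261), and TIMM8B had a log2 fold change of 0.44 (adjusted p = 0.610).

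Reads could be assigned to more than 1 row for part of the family. Exons of 21 of the 47 members overlap another gene in GENCODE 29. For example, the exons of SLC25A24, SLC25A29, SLC25A12, SLC25A18, SLC25A22, SLC25A40, SLC25A25, SLC25A30 and SLC25A26 overlap genes on the opposite strand. SLC25A5 overlaps SLC25A5-AS1, which had 20 to 37 counts. LRIG1, which overlaps SLC25A26, had 1424 to 2624 counts, and DBF4, which overlaps SLC25A40, had 1197 to 1849. Of 40 pseudogene rows of the family, 31 had 0 counts in all libraries and none exceeded 8 in any library, and the counting of reads that fit both a carrier and such a copy is not known here.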

How the data were processed

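Reads were aligned and counted with HISAT2 2.1.0 and featureCounts 1.6.4 on hg38 (GRCh38), as listed in the submitters' processing notes. Values are unnormalized counts for each gene symbol, deposited beside a gene length, per the file headers. For strand setting, treatment of multiple alignments and annotation release: not given in the sources used here. Genes were filtered with filterByExpr by group, leaving 17564 of 59050, and TMM factors scaled the library sizes. The comparison used edgeR 4.0.16 (R 4.3.3) and its quasi-likelihood test (robust, newer estimate of dispersion, group only), adjusted over all tested genes (Benjamini-Hochberg, threshold 0.05). SE is the log2 fold change divided by the square root of F. One count was worth 0.0485 to 0.0603 CPM. Levels per length divide CPM by the deposited length. Alternatives were DESeq2 1.42.0, limma-voom (limma 3.58.1), 3 scalings, 2 filters, the replicate number as a block, mitochondrially encoded genes left out and each library left out with the same genes tested. edgeR was tested on simulated data.

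Members, classes and lists were chosen with earlier results of these data known. Members may be named by the rule. Values in every library are given for the 12 tested members with the lowest p, the 8 highest per length, and those called with DESeq2 or with 1 library left out. Other members named with values, such as SLC25A4 and SLC25A28, complete a substrate class. Of other lists up to 3 genes with the lowest p are named. BNIP3, the relatives, the marker genes named for their level and promoter stretches were chosen after their values were seen. Positions are from GENCODE 29, matched by symbol for all 47 members, and promoters from RefSeq on GRCh38.p14. Of the members, 1 is counted in the totals and is not reported here by name or drawn.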

Additional observations from a re-analysis of the deposited data

How the results depend on the processing

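Over the 13 alternatives, edgeR, DESeq2 and limma-voom called 0 SLC25 members except without replicate 2 labelled WT, so the count ran from 0 to 6 with each library left out. Calls over all tested genes were 73 (63 higher and 10 lower) and became 124 with no filter on low counts, 39 with at least 1 CPM in all 4 libraries, 195 with DESeq2, 30 with limma-voom and 33 to 1205 with each library left out. The cause was not tested. The members' median log2 fold change ran from -0.025 to 0.10 with each library left out, and the share of SLC25A24 among ATP-Mg/phosphate carriers differed by 5.65 to 15 percentage points. No scaling moved the median of all genes by more than 0.1. Of the 41 members, 25 kept the sign of their difference in every alternative run and 16 did not.

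With the replicate number as a block, 373 genes were called and 0 members. The edgeR adjusted p was then 0.0591 for SLC25A17 and 0.0921 for SLC25A24. Deviations of same-numbered libraries correlated at 0.219 over tested genes. With only 2 numbers the libraries share a number and nothing more that the labels state.

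Groups of 2 libraries limit precision. The widest 95% intervals were those of SLC25A41, SLC25A18, SLC25A48 and SLC25A32, which had at most 20 counts in any library.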
